A study of Homo sapiens with 12 samples.

Results

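The human mitochondrial genome carries 37 genes, and the rows with their symbols were taken from the deposited count table: 13 messenger RNAs (mRNAs), 2 ribosomal RNAs (rRNAs) and 22 transfer RNAs (tRNAs), out of 51141 symbols in all. The nuclear genes TRNT1 and TRNP1 have look-alike symbols and were left out. All 37 rows were found. The cells were EA.hy926, an endothelial line that the labels describe as derived from umbilical vein and that is a hybrid of such cells with the lung carcinoma line A549. Control cells had neither agent and were kept at normal oxygen, and hypoxia cells were kept for 8 h in 1% oxygen. TEPA cells received 50 µM of the copper chelator TEPA for 16 h and then spent 8 h at normal oxygen. TEPA+hypoxia cells received the same chelator treatment followed by 8 h in 1% oxygen. Each of the 4 groups has 3 libraries, and all 12 come from this single line grown in the same serum-supplemented medium. The labels do not say whether replicates were separate cultures, so p-values measure only the spread between these libraries, which may be technical.

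Mitochondrial DNA is transcribed from both strands into long precursors that span many genes. The precursor read from the heavy strand holds both rRNAs, nearly all mRNAs and most tRNAs, whereas the precursor read from the light strand holds ND6 and the other tRNAs. The tRNAs lie between the longer genes, and their excision by the mitochondrial RNase P and ELAC2 releases the mRNAs and rRNAs, an arrangement known as tRNA punctuation. Most mitochondrial mRNAs carry poly(A) tails, while a mature tRNA ends in CCA and is not normally polyadenylated. The libraries were made from poly(A) RNA, so counts at a tRNA gene come from whatever polyadenylated molecules reach it and are not the amount of mature tRNA. The mRNAs encode subunits of complex I (ND1 to ND6 and ND4L), complex III (CYTB), complex IV (COX1 to COX3) and the ATP synthase (ATP6 and ATP8).

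The results below turn on a few tRNA genes and on the 2 places where mRNAs overlap, whose sequences are shown here with their positions. Among the tRNAs read from the heavy strand, TRNT, TRND, TRNV, TRNW and TRNL1 carry threonine, aspartate, valine, tryptophan and leucine. Capitals mark the anticodon, located as the middle of a 7-base loop closed by a 5-base stem with at least 4 bases paired (4 in TRNT, TRNV, TRNW and TRNL1, 5 in the other 4 shown), and the sequences are the genes, with T in place of U and without the added CCA.
TRNT: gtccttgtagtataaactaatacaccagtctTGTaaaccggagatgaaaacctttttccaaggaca
TRND: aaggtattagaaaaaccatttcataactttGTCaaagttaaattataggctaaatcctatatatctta
TRNV: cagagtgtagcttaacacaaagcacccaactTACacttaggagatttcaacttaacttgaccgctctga
TRNW: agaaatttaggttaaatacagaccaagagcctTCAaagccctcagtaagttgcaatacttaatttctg
TRNL1: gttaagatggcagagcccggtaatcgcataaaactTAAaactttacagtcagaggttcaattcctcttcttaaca
Of the light-strand tRNAs, TRNC, TRNQ and TRNP carry cysteine, glutamine and proline, and they are shown because they moved the other way in hypoxia.
TRNC: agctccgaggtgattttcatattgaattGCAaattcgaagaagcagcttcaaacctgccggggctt
TRNQ: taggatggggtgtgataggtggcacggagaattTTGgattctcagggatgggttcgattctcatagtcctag
TRNP: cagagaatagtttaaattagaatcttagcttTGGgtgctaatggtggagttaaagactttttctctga

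TRNV (MT:1602-1670) lies between RNR1 and RNR2, and TRNL1 (MT:3230-3304) between RNR2 and ND1. TRNW (MT:5512-5579) follows ND2, TRND (MT:7518-7585) precedes COX2, and TRNT (MT:15888-15953) follows CYTB, all on the plus strand of the reference. TRNQ (MT:4329-4400), TRNC (MT:5761-5826) and TRNP (MT:15956-16023) are on the minus strand. Coordinates are from RefSeq on GRCh38.p14, and all 37 matched GENCODE 29 by position, which gave strand and sequence. Over the tRNAs with enough counts to test, GC content was 23.5% to 45.6% for the heavy strand (median 38.3%) and 33.8% to 49.3% for the light strand (median 42.4%). Their lengths were 66 to 75 bases, and a read at such a gene can also cover part of a neighbour. How the authors' counter treats such reads, and whether it used strand, is not given in the sources used here. Without strand, reads from a gene and from the opposite precursor cannot be told apart.

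Both overlaps join mRNAs that are read from a single transcript. In ATP8 and ATP6 the start codon of the second gene and the stop codon of the first, in capitals, bound the 46 shared bases at MT:8527-8572. In ND4L and ND4 they bound the 7 shared bases at MT:10760-10766.
ATP8 and ATP6: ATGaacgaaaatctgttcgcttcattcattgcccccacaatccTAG
ND4L and ND4: ATGcTAA
The shared transcripts are 842 and 1668 bases long.

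Library totals ran from 13406858 to 24778944 counts. In 2 libraries, hypoxia 2 and hypoxia 3, the TMM factors (the scaling used for composition) were 0.772 and 0.838, against 1.03 to 1.08 in the other 10. Their part in the results that use the hypoxia group is therefore given beside each, by the fit without them, which leaves hypoxia 1 alone in that group and assumes that it varies like the others. None of the 10 endothelial markers was at 0, and they summed to 3611 to 6347 CPM in hypoxia against 3175 to 3801 CPM elsewhere, ENG and EGFL7 being called higher and ERG, KDR, TEK, CDH5 and PECAM1 lower in hypoxia against control. Of the 6 epithelial markers, KRT7, KRT8 and KRT18 were abundant while CDH1 was at 0 in all libraries, and the list summed to 7690 to 18184 CPM in hypoxia against 5440 to 7417 CPM elsewhere. The part of these shifts in the hypoxia results was not tested. Of the 8 fibroblast and mural markers, COL3A1 and DCN were at 0 in every library, but RGS5 was at 34.5 to 96.2 CPM. Of the 6 leukocyte markers, PTPRC and MS4A1 were at 0 in every library, but CD68 was at 145 to 200 CPM. The rest of these 2 lists reached at most 1.16 CPM. In hypoxia against control edgeR called RGS5 lower and CD68 higher. CPM are counts per 1000000 of the library total times its TMM factor, and 3 counts, taken as the floor, corresponded to 0.118 to 0.267 CPM.

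The 37 genes together took 4.58% ± 0.37 of all counts in control (SD, n = 3), 4.33% ± 0.058 in TEPA, 4.19% ± 0.44 in TEPA+hypoxia and 3.32% ± 0.38 in hypoxia. By library the share was 4.68%, 4.88% and 4.17% in control and 3.75%, 3.08% and 3.11% in hypoxia. It was 4.27%, 4.38% and 4.36% in TEPA and 4.01%, 3.88% and 4.70% in TEPA+hypoxia. The 3 hypoxia libraries were lower than the other 9, and the remaining 3 groups overlapped one another. These shares are of the unscaled library totals. The TMM scaling used for CPM would raise hypoxia 2 and 3 (factors 0.772 and 0.838) relative to the other libraries. On that scale the hypoxia and TEPA+hypoxia libraries overlap. The separation of the 3 hypoxia libraries from the other 9 therefore holds for the unscaled totals only. The 95% Wilson interval of a library's share was within 0.0102 percentage points of it, covering counting error only, and the spread between libraries was far wider. The interval takes reads as independent molecules. In bulk RNA, fewer mitochondrial genomes or cells and less RNA from each cannot be told apart.

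Nearly all of this share was mRNA, at 2.77% to 4.54% of counts. The rRNAs took 0.213% to 0.391%, and the 22 tRNAs 0.00268% to 0.00705%, or 436 to 1435 counts per library. For every 1000 mRNA counts the tRNA genes held 1.30, 1.55 and 1.46 counts in control and 1.47, 1.55 and 1.46 in TEPA. They held 1.13, 1.77 and 1.43 in hypoxia and 0.836, 0.731 and 0.683 in TEPA+hypoxia. Thus all 3 TEPA+hypoxia libraries were below the other 9, at 0.750 ± 0.078 against 1.49 ± 0.047 in TEPA.

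Per kilobase, COX1 was the most abundant member in control at 8189 ± 661 CPM per kb, followed by ATP8 at 7260 ± 835, COX3 at 6169 ± 321, COX2 at 5819 ± 156 and ATP6 at 5556 ± 423 (SD, n = 3). Next came ND4 at 3910 ± 449 and ND4L at 3428 ± 685, and then ND2, CYTB, ND1 and RNR2 between 2008 and 1557 CPM per kb. ND5 stood at 1138 ± 189, RNR1 at 621 ± 54, ND3 at 419 ± 9.5 and ND6, the only light-strand mRNA, at 370 ± 31. Neighbours in this order from COX1 to ATP6 differed by less than the sum of their SDs, as did ND4 and ND4L, and the run from ND2 to RNR2. Each step below RNR2 was larger than that sum. Both rRNAs, which hold the ribosome's catalytic and decoding parts, ranked in the lower 5 of these 15 genes. Counts in poly(A) libraries depend on the tail of each RNA, which was not measured. The places of the rRNAs and ND6 are therefore not their places in total RNA.

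Of the 37 members, 30 passed the edgeR filter on low counts and were tested: 13 mRNAs, 2 rRNAs and 15 tRNAs, of which 8 are heavy-strand (TRNF, TRNV, TRNL1, TRNI, TRNM, TRNW, TRND, TRNT) and 7 light-strand (TRNQ, TRNN, TRNC, TRNY, TRNS1, TRNE, TRNP). TRNW passed only through control and hypoxia libraries, and TRNN only with the help of the hypoxia libraries. Values of both genes in comparisons with those groups are therefore not independent of the filter. The other 7 tRNAs were too low. TRNR, the arginine tRNA, had 0 counts in all libraries, under the floor of 3 counts. TRNA, the alanine tRNA, had 3 to 18 counts, TRNK 0 to 7, and TRNH, TRNL2, TRNS2 and TRNG 5 or fewer. The call rule was a Benjamini-Hochberg adjusted p below 0.05 in the 2-sided edgeR quasi-likelihood test, over all 14447 genes tested. Where genes with an unadjusted p under 0.05 are counted below, the share of all genes at that threshold was not counted. Such a count therefore does not set the members apart from other genes.

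The response to low oxygen after the chelator is given by TEPA+hypoxia against TEPA. Here 3 tRNA genes of the heavy strand fell, and no mRNA passed the test. TRNT fell by 3.09 on the log2 scale, TRNV by 3.01 and TRND by 2.50, and no member rose. The hypoxia group has a part in this comparison only by way of scaling, filter and the pooled estimate of spread.

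TRNT had 86, 52 and 50 counts in TEPA 1 to 3 and 8, 4 and 7 in TEPA+hypoxia 1 to 3. Control libraries 1 to 3 held 56, 35 and 46 counts, and hypoxia libraries 1 to 3 held 19, 41 and 23. The TEPA+hypoxia libraries were thus below all 9 others, and the log2 fold change against TEPA was -3.09 ± 0.36 (SE, adjusted p = 0.00722). TRND had 56, 30 and 38 counts in TEPA and 8, 7 and 4 in TEPA+hypoxia, beside 32, 32 and 36 in control and 12, 22 and 21 in hypoxia. Again the TEPA+hypoxia libraries were the lowest 3 of the 12 (log2 -2.50 ± 0.37, adjusted p = 0.0304). TRNV had 136, 80 and 74 counts in TEPA and 17, 3 and 11 in TEPA+hypoxia, and 67, 83 and 68 in control and 10, 10 and 1 in hypoxia. Here both low-oxygen groups were below both others (log2 -3.01 ± 0.46, adjusted p = 0.0339 against TEPA). TRNT lost its call without TEPA 1 or 2 or TEPA+hypoxia 2 or 3 (adjusted p up to 0.0770). TRND and TRNV kept theirs only without a hypoxia library among the 12 fits that leave out 1 library (adjusted p up to 0.201 and 0.214), and limma-voom called TRNT alone.

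The remaining 5 tested heavy-strand tRNAs were also lower in every TEPA+hypoxia library than in any TEPA library, without passing the test. TRNF, the phenylalanine tRNA at the start of the heavy-strand precursor, had 81, 45 and 24 counts in TEPA and 7, 3 and 7 in TEPA+hypoxia (log2 -2.89 ± 0.48, adjusted p = 0.0620). TRNW had 11, 7 and 5 counts against 1, 1 and 2, which is under the floor of 3 in each TEPA+hypoxia library, so its value of -2.23 ± 0.52 (adjusted p = 0.204) depends on very few counts. From the summed counts, 4 against 23, the TEPA+hypoxia level of TRNW was 0.196 times that in TEPA, with an exact 95% counting interval of 0.0493 to 0.575. TRNL1, by far the most counted, had 713, 548 and 478 counts against 237, 239 and 310 (log2 -0.98 ± 0.22, adjusted p = 0.204). TRNI, the isoleucine tRNA, had 50, 28 and 24 counts against 12, 9 and 12 (-1.42 ± 0.45), and TRNM, the methionine tRNA, 61, 51 and 44 against 20, 14 and 32 (-1.08 ± 0.26). All 8 tested heavy-strand tRNAs therefore had groups that did not overlap, with a median of -2.37. Among all genes tested, 18% were lower with no overlap and the median was 0.00.

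The light-strand tRNAs differed from this pattern in the same libraries. TRNS1, a serine tRNA, had 8, 13 and 9 counts in TEPA and 19, 24 and 21 in TEPA+hypoxia (log2 1.22 ± 0.36, adjusted p = 0.347). TRNE, the glutamate tRNA, had 41, 33 and 24 against 19, 15 and 3 (-1.22 ± 0.50, adjusted p = 0.584). These 2 did not overlap, TRNS1 higher and TRNE lower, and the share of all genes that were higher with no overlap was 12.5%. TRNQ had 104, 93 and 83 counts against 78, 64 and 39, TRNC 22, 26 and 38 against 25, 19 and 20, and TRNP 27, 18 and 15 against 23, 14 and 10. TRNN had 4, 10 and 7 against 8, 5 and 7, and TRNY 18, 6 and 12 against 6, 11 and 6. These 5 overlapped, between -0.47 for TRNQ and 0.06 for TRNN, and the median of the 7 was -0.31.

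**Figure D1:**
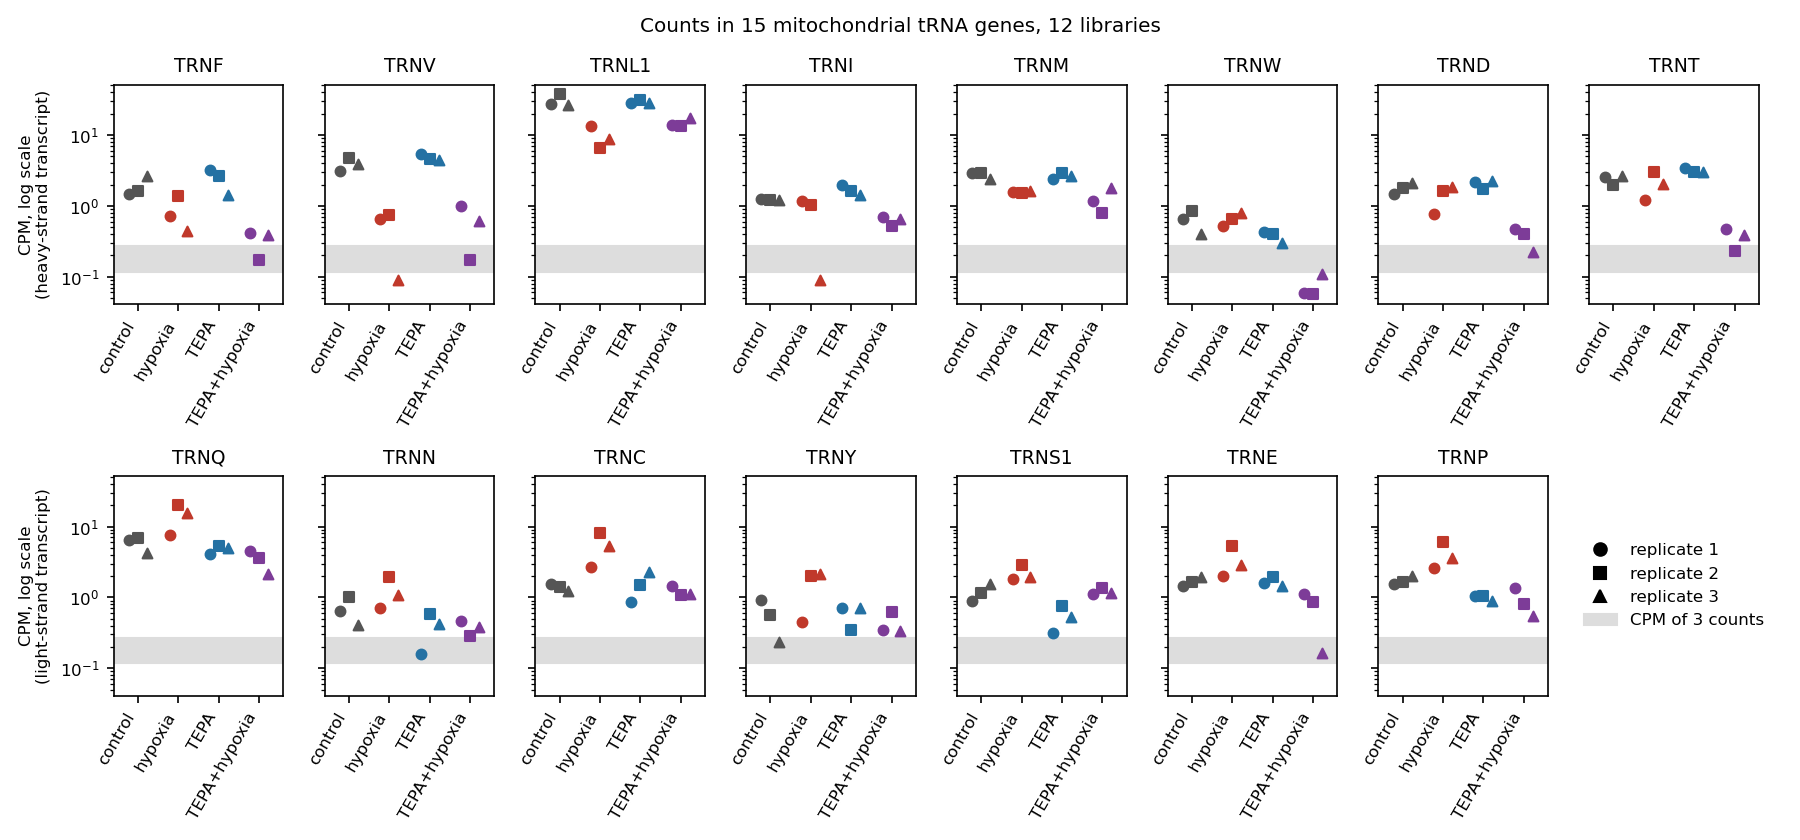
CPM on a log axis of the 15 tested mitochondrial tRNA genes in the 12 libraries, heavy-strand genes above and light-strand genes below, with the replicate as the marker shape and the CPM that 3 counts give as a grey band. TRNT and TRND are lowest in TEPA+hypoxia, TRNV and TRNL1 are low in both low-oxygen groups, and all light-strand genes but TRNY reach their highest value in hypoxia 2.

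The differences of the mRNAs were smaller. ND1, a complex I subunit, was at 1461, 1510 and 1395 CPM in TEPA and 975, 959 and 1091 CPM in TEPA+hypoxia (log2 -0.53 ± 0.10, adjusted p = 0.143). ND6 was at 157, 167 and 162 against 129.8, 127 and 111 CPM (-0.40 ± 0.12, adjusted p = 0.361). ND2 was at 1753, 1881 and 1927 CPM against 1428, 1357 and 1688. In these 3 genes, as in ND3, COX2 and COX3, the groups did not overlap, and none of these 6 mRNAs passed the test. The remaining 7 lay between -0.13 for ATP6 and 0.21 for ND4L. RNR2 was at 2455, 2334 and 2315 CPM in TEPA and 1776, 1582 and 2657 CPM in TEPA+hypoxia (-0.24 ± 0.19). RNR1 was at 743, 629 and 605 CPM in TEPA and 424, 398 and 1043 CPM in TEPA+hypoxia (log2 -0.08 ± 0.35). In both rRNAs TEPA+hypoxia 3 was the highest of the 6 and the other TEPA+hypoxia libraries the lowest.

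Of the 30 tested members, 3 were called lower and 0 higher by edgeR, against 0.0346% and 0.0623% of all genes called in those directions. At an unadjusted p under 0.05 there were 15 members, of which 1, TRNS1, was higher. The calls of TRNT, TRND and TRNV, and the values of ND1 and ND6, were known when these genes were chosen. DESeq2 called 7 lower and limma-voom 1, against 50 and 3 of all 14447 genes, and neither called a member higher. With hypoxia 2 and 3 left out, 11 were called lower and 0 higher, against 0.842% and 1.32% of all genes. They were ND1, ND3, ND6, COX2, TRNL1, TRNF, TRND, TRNM, TRNI, TRNV and TRNT, that is 4 mRNAs and 7 of the 8 heavy-strand tRNAs. ND1 was then at -0.52 (adjusted p = 0.00157), TRNF at -2.89 (adjusted p = 0.00368) and TRNT at -3.08 (adjusted p = 1.34e-04).

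**Figure D2:**
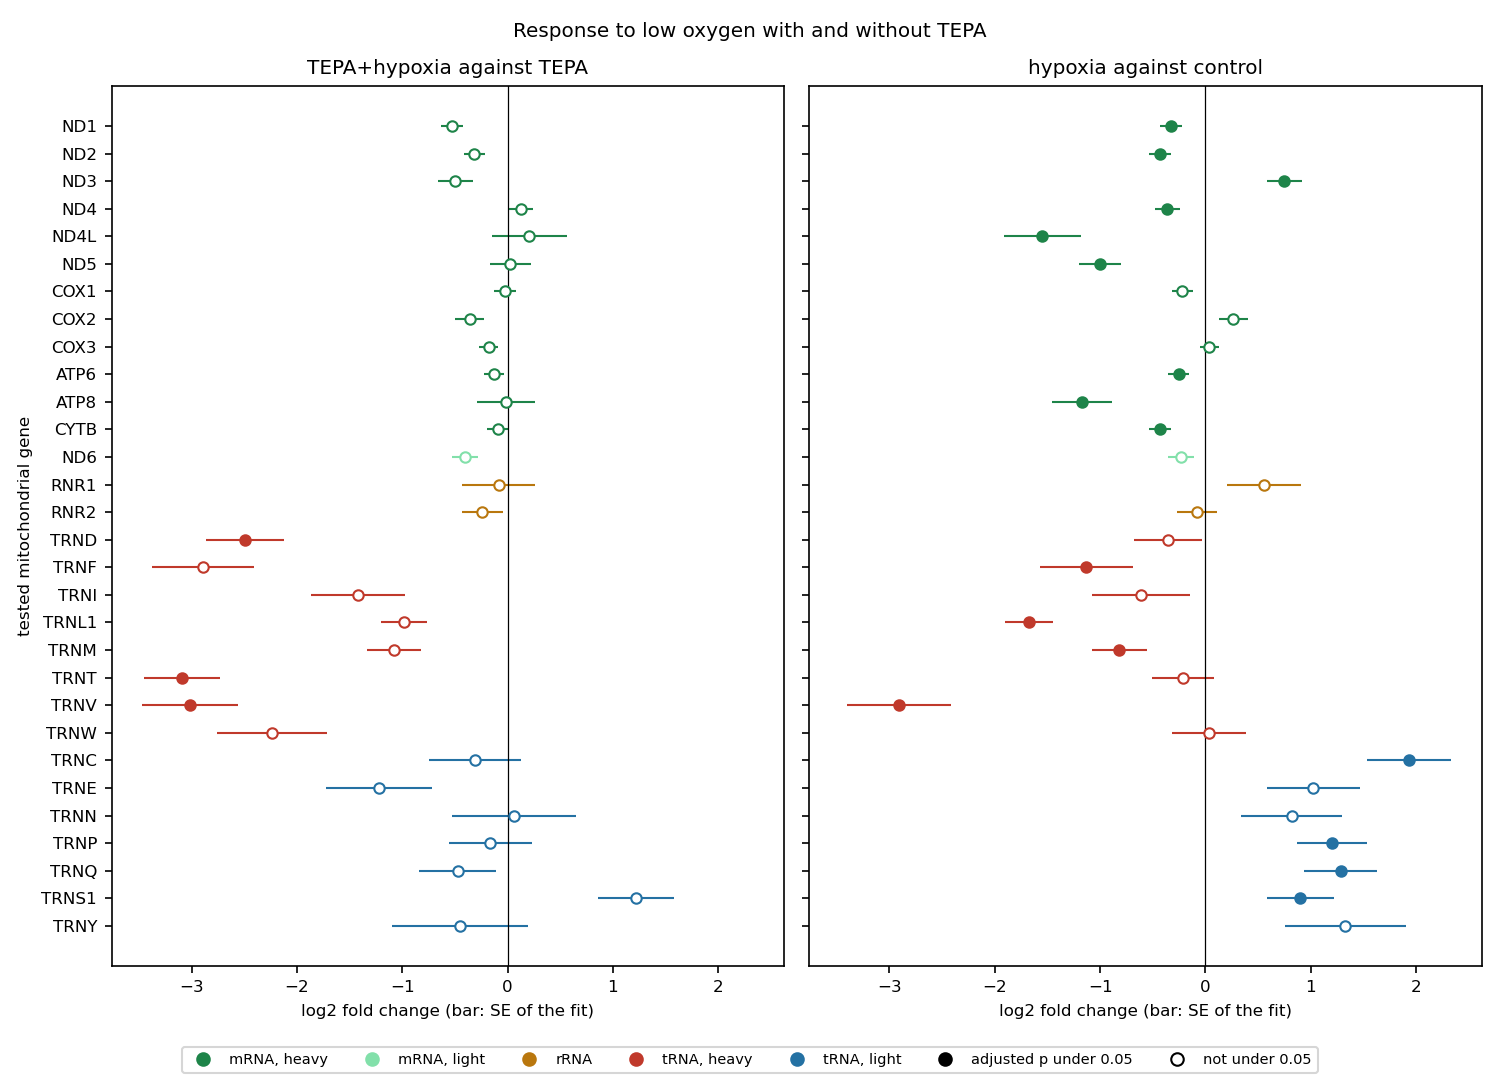
Log2 fold change (horizontal axis, bar: SE of the edgeR fit) of the 30 tested members for TEPA+hypoxia against TEPA and for hypoxia against control, coloured by RNA class and strand, with filled points at an adjusted p under 0.05. Heavy-strand tRNAs lie at or below -0.98 with TEPA, where light-strand tRNAs lie from -1.22 to 1.22, and in hypoxia against control all 7 light-strand tRNAs lie above 0.

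Hypoxia against control gives the response without the chelator. ND4L, ATP8 and ND5 fell most among the mRNAs and ND3 rose, so the mRNAs of complex I moved in both directions. Of the tRNAs, 4 of the light strand rose and 4 of the heavy strand fell. In all, 5 members rose and 12 fell, where 29.4% and 27.8% of all genes were called higher and lower. The share of members called lower was thus 40.0% and higher 16.7%. The fit without hypoxia 2 and 3, with 1 hypoxia library, called 2 members lower, ND1 (-0.50, adjusted p = 0.0470) and TRNL1 (-1.20, adjusted p = 0.0268), and 0 higher, against 0.23% and 0.283% of all genes, and 18 of 31 had an unadjusted p under 0.05. Several members that were no longer called had a fold change close to that in the fit of all 12 libraries: ND2 was at -0.42, ATP6 at -0.24, CYTB at -0.37, TRNM at -0.83, TRNF at -1.40 and TRNV at -2.58. Others were nearer 0, ND4L at -0.72, ATP8 at -0.49, ND5 at -0.58, ND3 at 0.37, TRNC at 0.96 and TRNQ at 0.36. With only the 6 libraries compared edgeR called 0 members and 0 of all 13876 genes tested. There 15 of 30 members had an unadjusted p under 0.05.

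Of the complex I mRNAs, ND4L was at 1037, 1212 and 806 CPM in the control libraries and 619, 196 and 227 CPM in the hypoxia libraries (log2 -1.55 ± 0.37, adjusted p = 0.00690). ND5 was at 2075, 2398 and 1715 CPM against 1377, 849.9 and 861 CPM (-1.0 ± 0.20, adjusted p = 0.00601). In both, all hypoxia libraries were below control and hypoxia 2 and 3 were far below hypoxia 1. ND3 was at 141, 146 and 148 CPM in control and 188, 314 and 230.2 CPM in hypoxia, each hypoxia library being above control (0.75 ± 0.17, adjusted p = 0.00617). ND1, ND2 and ND4 fell by 0.33, 0.43 and 0.36 on the log2 scale. ND1 went from 1548, 1648 and 1422 CPM to 1089, 1349 and 1237 CPM, ND2 from 2042, 2288 and 1947 to 1567, 1591 and 1513 CPM, and ND4 from 5641, 5840 and 4684 to 4522, 4053 and 3991 CPM. No hypoxia library overlapped control in these 3, and ND1 was lowest in hypoxia 1. ND1 and ND4 lost their calls without control 1 or 2, and ND4 also without hypoxia 3 (adjusted p up to 0.107 and 0.245 over all alternatives). ND6 was at 186, 213 and 184 CPM in control and 148, 197 and 149.9 CPM in hypoxia, with overlap (-0.23 ± 0.12, adjusted p = 0.118).

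In complexes III and IV, CYTB went from 2068, 2173 and 1749 CPM to 1543, 1465 and 1438 CPM (-0.43 ± 0.10, adjusted p = 0.00737). None of the COX genes passed. COX2, which carries a copper site of cytochrome c oxidase, was at 4045, 4038 and 3857 CPM in control and 3652, 5735 and 4949 CPM in hypoxia, so that hypoxia 1 was below control and hypoxia 2 and 3 above it. COX3 was at 5023, 4937 and 4550.3 CPM against 4469.8, 5343 and 5088 CPM, with the same arrangement. COX1, which holds the other copper site, lay between 10622 and 11224 CPM in hypoxia and between 11451 and 13224 in control (-0.22 ± 0.10, adjusted p = 0.0849).

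Of the ATP synthase genes, ATP8 was at 1375, 1699.6 and 1434 CPM in control and 1067, 398 and 537 CPM in hypoxia (-1.17 ± 0.28, adjusted p = 0.00718). ATP6, on the same transcript, was at 3877, 4014 and 3460.4 CPM and 3201, 3212 and 3108 CPM (-0.25 ± 0.10, adjusted p = 0.0440). The call for ATP6 was kept in 3 of the 12 fits that leave out 1 library, those without control 3, hypoxia 1 or TEPA+hypoxia 3 (adjusted p up to 0.189 otherwise). The fall of ATP8 was thus far larger than that of ATP6 in hypoxia 2 and 3 but not in hypoxia 1. RNR1 was at 559, 565 and 651 CPM in control and 533, 1174 and 906 CPM in hypoxia, and RNR2 at 2449.7, 2647 and 2186 against 1799.8, 2786 and 2304 CPM. Of these 6 libraries both rRNAs were lowest in hypoxia 1 and highest in hypoxia 2, and neither passed (adjusted p = 0.187 and 0.738).

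**Figure D3:**
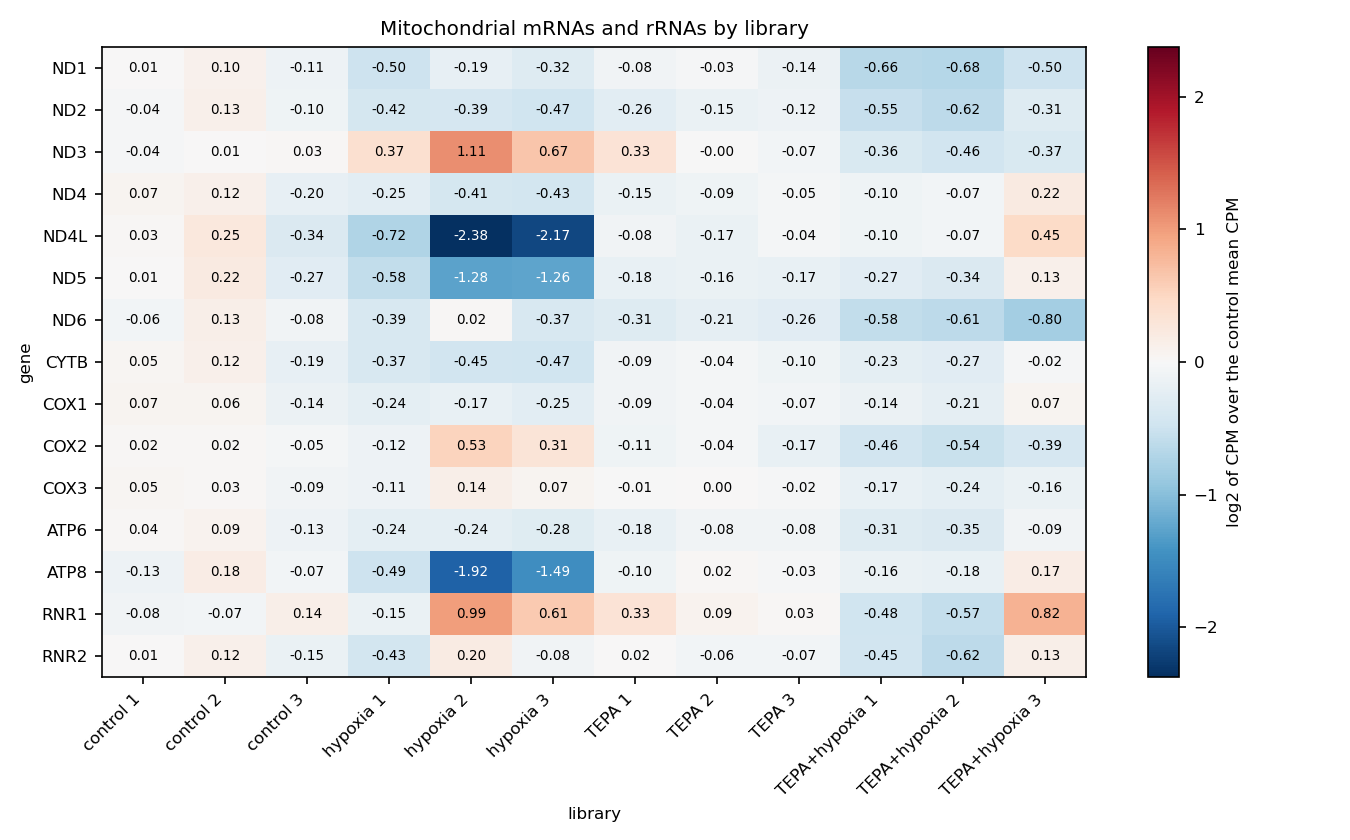
Log2 of each library's CPM over the mean CPM of the 3 control libraries for the 13 mRNAs and 2 rRNAs (rows) in 12 libraries (columns). ND4L, ATP8 and ND5 are at -2.38, -1.92 and -1.28 in hypoxia 2 while ND3 is at 1.11, and the TEPA libraries stay within 0.33 of 0.

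Among heavy-strand tRNAs, TRNL1 fell from 597, 658 and 458 counts to 204, 90 and 98 (log2 -1.67 ± 0.23, adjusted p = 0.00601). TRNV fell from 67, 83 and 68 counts to 10, 10 and 1 (-2.91 ± 0.49, adjusted p = 0.00601). TRNL1 kept its call without hypoxia 2 and 3, and TRNV was then at -2.58 (adjusted p = 0.0557). TRNM went from 64, 52 and 41 to 24, 21 and 18 counts (-0.82 ± 0.26) and TRNF from 32, 29 and 45 to 11, 19 and 5 (-1.13 ± 0.44), both called in the fit of all 12 libraries. TRNM lost its call without control 1 or 2 or hypoxia 2 or 3 (adjusted p up to 0.209), and TRNF kept its own in 4 of the 12 fits without 1 library, those without hypoxia 2, TEPA 1, TEPA 3 or TEPA+hypoxia 2 (adjusted p up to 0.176). TRNI, not called, had 27, 21 and 21 counts in control and 18, 14 and 1 in hypoxia. TRNT was at -0.21 ± 0.30, TRND at -0.35 ± 0.32 and TRNW at 0.03 ± 0.35, none of them called. In the fit without hypoxia 2 and 3 they were at -0.97 ± 0.35, -1.19 ± 0.44 and -0.29 ± 0.60, again not called (adjusted p = 0.146, 0.148 and 0.802 by edgeR). TRNW had 14, 15 and 7 counts in control and 8, 9 and 9 in hypoxia, with overlap.

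All 7 tested light-strand tRNAs had a positive fold change in hypoxia, with a median of 1.21 against -0.71 for the heavy-strand tRNAs and -0.01 for all genes. TRNC had 33, 25 and 21 counts in control and 42, 109 and 60 in hypoxia (1.94 ± 0.40, adjusted p = 0.00601). TRNQ had 139, 121 and 73 counts against 116, 273 and 172 (1.29 ± 0.35, adjusted p = 0.0107), and its count in hypoxia 1 lay within the range of control. TRNP rose from 34, 29 and 35 counts to 40, 81 and 40 (1.21 ± 0.33), and TRNS1 from 19, 20 and 27 to 28, 39 and 22 (0.90 ± 0.32). TRNQ and TRNP lost their calls without hypoxia 2, and TRNS1 without control 1 or 2 or hypoxia 2 or 3 (adjusted p up to 0.531, 0.378 and 0.408). By CPM the 3 hypoxia libraries were above control for TRNC, TRNQ, TRNP, TRNS1 and TRNE. TRNE had 31, 29 and 33 counts against 31, 72 and 32 (1.03 ± 0.44, adjusted p = 0.0644). The asparagine and tyrosine tRNAs, TRNN and TRNY, were at 0.82 and 1.33. TRNN had 14, 18 and 7 counts in control and 11, 26 and 12 in hypoxia, and TRNY 20, 10 and 4 against 7, 27 and 24, with overlap in both. TRNN passed the filter on low counts only with the help of the hypoxia libraries, so its positive sign is not independent of that filter. Over the 30 members, 14 were lower and 6 higher with no overlap of CPM, where 28.2% and 27.4% of all genes were. No light-strand tRNA was called without hypoxia 2 and 3, and the median, now of 8 with TRNA, was 0.46.

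Summed over all 22 tRNAs, with TRNL1 set apart because it holds most heavy-strand counts, the strands can be compared within a library, free of the scaling between libraries. The other 13 heavy-strand tRNAs had 301, 280 and 278 counts in control and 491, 300 and 270 in TEPA. They had 108, 141 and 82 in hypoxia and 83, 41 and 82 in TEPA+hypoxia. The 8 light-strand tRNAs had 295, 261 and 205 counts in control, 231, 208 and 206 in TEPA, 284, 634 and 365 in hypoxia and 183, 156 and 112 in TEPA+hypoxia. Heavy-strand counts per light-strand count were therefore 1.02, 1.07 and 1.36 in control and 2.13, 1.44 and 1.31 in TEPA. They were 0.380, 0.222 and 0.225 in hypoxia and 0.454, 0.263 and 0.732 in TEPA+hypoxia. All 6 low-oxygen libraries were below all 6 libraries at normal oxygen, hypoxia 1 included. With TRNL1 counted, the ratio was 3.04, 3.59 and 3.59 in control, 5.21, 4.08 and 3.63 in TEPA, 1.10, 0.364 and 0.493 in hypoxia and 1.75, 1.79 and 3.50 in TEPA+hypoxia, so that TEPA+hypoxia 3 then lay within the range of control.

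Comparing all 6 low-oxygen libraries with the 6 at normal oxygen, 7 of the 30 tested members were lower in every one and 0 were higher, where 1.54% and 1.79% of all genes were. They were ND1, ND2, TRNF, TRNI, TRNL1, TRNM and TRNV. All but ND2 lie in the first part of the heavy-strand precursor from TRNF to TRNM, and ND2 directly follows TRNM. The other tested heavy-strand members of that stretch, RNR1 and RNR2, had groups that overlapped.

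Genes on a shared transcript gave a comparison that needs no scaling. ND4L counts per ND4 count were 0.184, 0.207 and 0.172 in control and 0.198, 0.180 and 0.190 in TEPA. They were 0.188, 0.188 and 0.221 in TEPA+hypoxia but 0.137, 0.0484 and 0.0567 in hypoxia. ATP8 counts per ATP6 count were 0.355, 0.423 and 0.414 in control, 0.420, 0.428 and 0.413 in TEPA and 0.440, 0.445 and 0.475 in TEPA+hypoxia. In hypoxia they were 0.333, 0.124 and 0.173. Both ratios were lower in all 3 hypoxia libraries than in the other 9, hypoxia 2 and 3 far more so than hypoxia 1. Each pair is translated from the same mRNA, so the values show that counts of the 5' gene and the 3' gene of a transcript moved unequally.

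**Figure D4:**
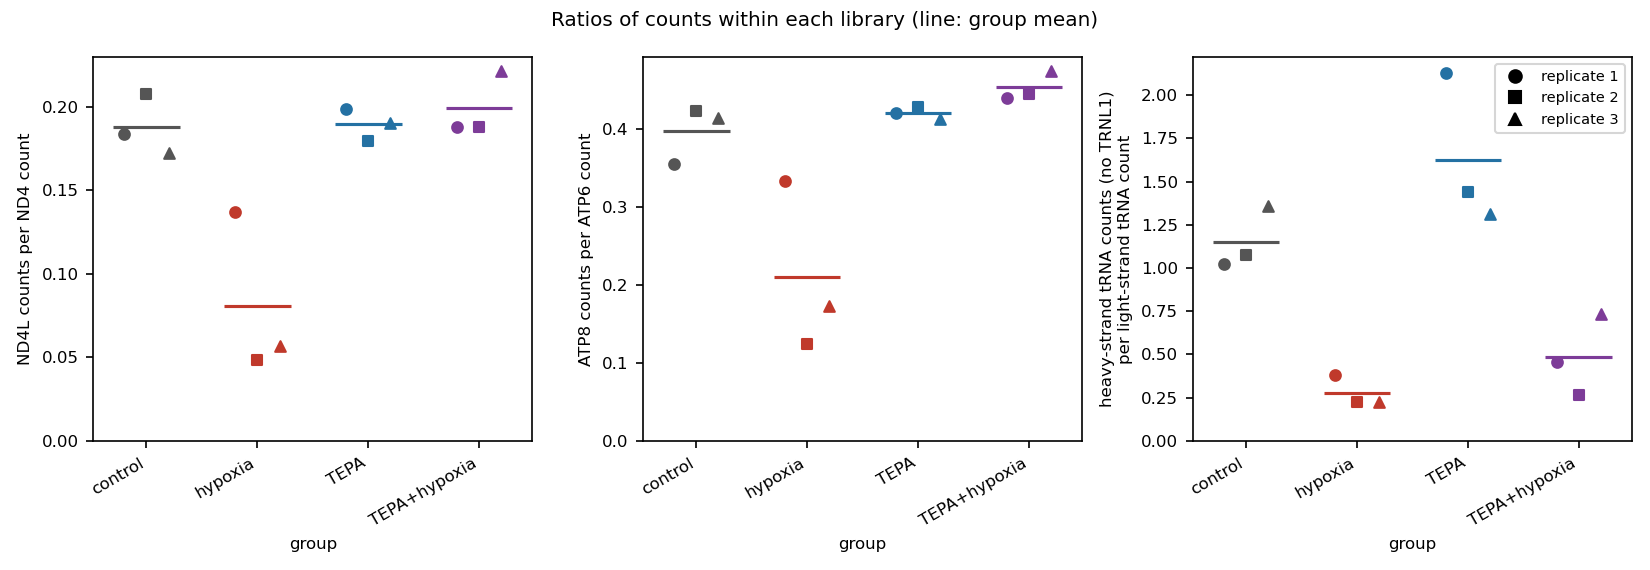
Ratios of counts within each library (vertical axes) for ND4L to ND4, ATP8 to ATP6 and heavy-strand tRNAs without TRNL1 to light-strand tRNAs, by group, with the line at the group mean and all axes from 0. Hypoxia 2 and 3 are lowest in the first 2 panels, and both low-oxygen groups reach at most 0.732 in the last, where the others start at 1.02.

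The differences from control were also set against mRNA length. Over the 11 mRNAs (ATP8 and ND4L were left out because they share their transcripts, and the length of each shared transcript was used for ATP6 and ND4), Spearman's rho between length and log2 of CPM over the control mean was -0.54, -0.85 and -0.71 in hypoxia 1 to 3. In TEPA+hypoxia 1 to 3 it was 0.54, 0.49 and 0.82, and in TEPA 1 to 3 it was -0.24, -0.39 and 0.04. ND3, the shortest of the 11, had the highest value in every hypoxia library and ND5, the longest, the lowest. In TEPA+hypoxia ND4 had the highest value in every library, and ND1 or ND6 the lowest. With GC content in place of length the values lay between -0.13 and 0.19 in the 6 low-oxygen libraries. In TEPA 1 to 3, where no member was called against control, they were 0.45, 0.48 and 0.10. These correlations are across genes that share libraries, precursor and control mean, and they are given as a description only.

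**Figure D5:**
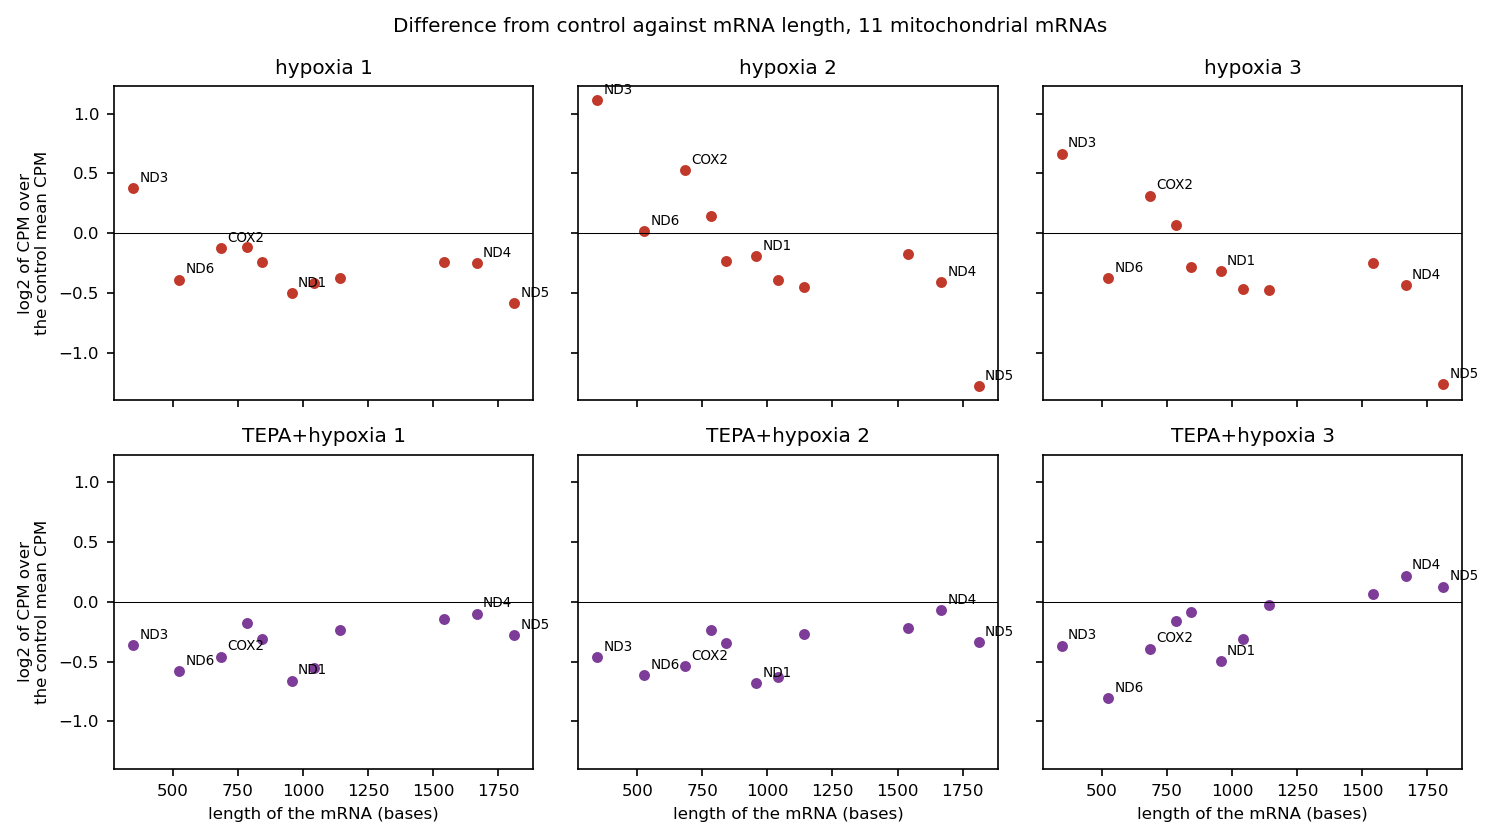
Log2 of CPM over the control mean CPM (vertical axis) against mRNA length in bases (horizontal axis) for 11 mitochondrial mRNAs, 1 panel for each of the 6 low-oxygen libraries. The points fall from ND3 to ND5 in hypoxia 2 and 3, where Spearman's rho was -0.85 and -0.71, and run upward in TEPA+hypoxia 3, where it was 0.82.

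For the chelator at normal oxygen, TEPA was set against control. No member was called: the count was 0 higher and 0 lower by edgeR, DESeq2 and limma-voom, and the share of all genes called by edgeR was 0% in both directions. Without hypoxia 2 and 3 it was again 0 in both directions by edgeR, with 4 members at an unadjusted p under 0.05, where 0% and 0.0263% of all genes were called higher and lower. In the fit of all 12 libraries 2 members had an unadjusted p under 0.05, TRNS1 (-1.19 ± 0.36) and TRNP (-0.79 ± 0.36). TRNS1 had 19, 20 and 27 counts in control and 8, 13 and 9 in TEPA. TRNP had 34, 29 and 35 against 27, 18 and 15. In both the TEPA libraries were lower with no overlap by CPM, and the same held for ND2 and ND6, while TRNI and TRNT were higher, so that 4 and 2 of 30 did not overlap where 6.92% and 6.64% of all genes did. Among the mRNAs that were called elsewhere, ND3 was at 183, 145 and 139 CPM in TEPA, ND4 at 4857, 5049 and 5209, ND4L at 964, 907 and 991 and ND5 at 1815, 1843 and 1832. CYTB was at 1874, 1935 and 1863 CPM, COX2 at 3700.1, 3875 and 3545, COX3 at 4806, 4837 and 4757, ATP6 at 3343, 3572 and 3567 and ATP8 at 1405, 1528 and 1475. All of these overlapped the control values given above. The 13 mRNAs lay between -0.26 for ND6 and 0.10 for ND3, the genes of the copper-containing subunits COX1 and COX2 at -0.07 ± 0.10 and -0.10 ± 0.14. A p that misses the threshold does not show that levels were equal.

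For the chelator in low oxygen, TEPA+hypoxia was set against hypoxia, so that the hypoxia libraries serve here too. The 7 tested light-strand tRNAs were all called lower, and ND4L, ATP8 and ND5 were called higher. In total 6 members were called higher and 16 lower, where 30.9% and 30.6% of all genes were. TRNQ was at 116, 273 and 172 counts in hypoxia and 78, 64 and 39 in TEPA+hypoxia (log2 -2.05 ± 0.36, adjusted p = 0.00217). TRNC was at 42, 109 and 60 counts against 25, 19 and 20 (-2.13 ± 0.41, adjusted p = 0.00223), and TRNP at 40, 81 and 40 against 23, 14 and 10 (-2.16 ± 0.36, adjusted p = 0.00217). Every TEPA+hypoxia library was below every hypoxia library in these 3 genes. TRNE, TRNN, TRNY and TRNS1 were at -2.25, -1.68, -1.76 and -0.87. TRNN had 11, 26 and 12 counts in hypoxia and 8, 5 and 7 in TEPA+hypoxia. It passed the filter on low counts only with the help of the hypoxia libraries, so its call here is not independent of that filter. TRNN, TRNY and TRNS1 lost their calls without hypoxia 2, TRNN also without TEPA+hypoxia 2, TRNY also without hypoxia 3 or TEPA+hypoxia 1 or 3, and TRNS1 also without hypoxia 3 or any TEPA+hypoxia library (adjusted p up to 0.404, 0.974 and 0.379).

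In TEPA+hypoxia against hypoxia 4 heavy-strand tRNAs were called lower, TRNT, TRNW, TRND and TRNF, at -2.51, -2.99, -1.93 and -1.40. TRNL1 was called higher at 0.64 ± 0.23 (adjusted p = 0.0308). Among the mRNAs ND4L, ATP8, ND5, ND4 and CYTB were called higher, at 1.66, 1.12, 0.86, 0.39 and 0.26, and ND3, COX2, ND6, ND1 and COX3 lower, at -1.15, -0.72, -0.43, -0.28 and -0.23. In TEPA+hypoxia 1 to 3, ND4L was at 948, 967 and 1388 CPM, ATP8 at 1347, 1324 and 1690.1, ND5 at 1705, 1633 and 2255, ND4 at 5039, 5150 and 6278 and CYTB at 1700.3, 1655 and 1964. Each was above all hypoxia libraries. ND3 was at 113, 105 and 113 CPM, COX2 at 2896, 2745 and 3034, and COX3 at 4284, 4103 and 4318, each below all hypoxia libraries. The calls for COX3, ND1, CYTB and TRNF held in 1, 4, 3 and 5 of the 12 fits without 1 library (adjusted p up to 0.550, 0.469, 0.217 and 0.296), in each case in the fit without hypoxia 1 and in none without hypoxia 2. TRNL1 lost its own without hypoxia 2 or 3 or TEPA+hypoxia 3 (adjusted p up to 0.581). ND4 lost its call without TEPA+hypoxia 3 and ND6 without hypoxia 2 or TEPA+hypoxia 3 (adjusted p up to 0.127 and 0.125). Without hypoxia 2 and 3 the calls were 2 higher, ND4L and ATP8, and 6 lower, ND3, COX2, TRNW, TRNT, TRNQ and TRNP, against 7.98% and 7.17% of all genes.

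Against control, TEPA+hypoxia had 5 members called lower and 0 higher, where 0.118% and 0.145% of all genes were called. They were TRNT (-2.72 ± 0.36, adjusted p = 0.00887), TRNW (-2.96 ± 0.49, adjusted p = 0.0285), TRND (-2.29 ± 0.38, adjusted p = 0.0285), TRNV (-2.72 ± 0.46, adjusted p = 0.0355) and ND1 (-0.61 ± 0.10, adjusted p = 0.0369). For TRNW the summed counts were 4 against 36, or 0.119 times the control level (exact 95% counting interval 0.0308 to 0.332). TRNW passed the filter on low counts only through control and hypoxia libraries, so its call here is not independent of that filter. All 8 tested heavy-strand tRNAs had values below every control library, as did 6 mRNAs and the light-strand tRNAs TRNE and TRNP, so 16 of 30 were lower with no overlap and 0 higher, where 15.5% and 13% of all genes were. ND6 was at -0.66 ± 0.12 (adjusted p = 0.0578). Unadjusted, 15 of the 30 had a p under 0.05. DESeq2 called 10 lower and limma-voom 3, against 156 and 15 of all 14447 genes, and neither called a member higher. TRNT lost its call without control 1 or 3 or TEPA+hypoxia 2 or 3 (adjusted p up to 0.0685), and ND1, TRND, TRNV and TRNW were called in 2, 3, 3 and 4 of the 12 fits without 1 library, each of them without a hypoxia library or, for TRNW, also without control 3 (adjusted p up to 0.229, 0.166, 0.185 and 0.207). The count without hypoxia 2 and 3 was 12 lower and 0 higher, against 2.27% and 2.75% of all genes.

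The interaction is the response to low oxygen with TEPA minus the response without it. TRNT was the member with the largest value, -2.88 ± 0.47 (adjusted p = 0.0236), and 8 members were called lower and 4 higher, where 21.5% and 17.3% of all genes were. The 4 were ND4L, ATP8, ND5 and ND4, which fell in hypoxia and lay between -0.02 and 0.21 with TEPA. Of the 8, TRNT, TRND and TRNW are heavy-strand tRNAs that were lowest in TEPA+hypoxia, and TRNC, TRNQ, TRNE, ND3 and COX2 are genes that were high in hypoxia 2 and 3. TRNW had 1, 1 and 2 counts in TEPA+hypoxia, under the floor of 3, and passed the filter only through control and hypoxia libraries. TRNT, TRND, ND3 and ND5 lost their calls without control 1 or 2, hypoxia 3, TEPA 2 or TEPA+hypoxia 3, and the other 8 held in 1 to 6 of the 12 fits without 1 library, always in the one without hypoxia 1 (adjusted p up to 0.220). Without hypoxia 2 and 3 edgeR called 0 members in either direction, with 12 of 31 at an unadjusted p under 0.05, and 0% of all genes, and TRNT was at -2.11 (adjusted p = 0.0654). TRNV, the heavy-strand tRNA that was low in both low-oxygen groups, was at -0.11 ± 0.73, an error too wide to read as no difference.

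Nuclear DNA holds copies of mitochondrial sequence to which reads can be assigned. Of 167 symbols for such copies in the table, 22 had any counts, and only MTND2P28, a copy of part of ND2, had at least 10 in every library. It had 1598, 1563 and 1189 counts in control, 709, 137 and 193 in hypoxia, 1772, 1167 and 1266 in TEPA and 916, 926 and 1278 in TEPA+hypoxia. Its log2 change in hypoxia was -1.65 ± 0.40 (adjusted p = 0.00761), and -0.75 without hypoxia 2 and 3 (adjusted p = 0.0638). ND2 had 16976 to 44709 counts, and the way the authors' aligner and counter split reads between them is not given in the sources used here.

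Nuclear genes for mitochondrial transcription, replication and RNA processing were all measured, 35 of 35. In TEPA+hypoxia against TEPA edgeR called 0 of them in either direction, where 0.0623% and 0.0346% of all genes were called higher and lower. With so few calls over all genes, 0 of 35 does not show that these genes were unchanged. There 2 had an unadjusted p under 0.05, and the list's median was -0.01. The 35 include ELAC2 and the RNase P genes TRMT10C, HSD17B10 and KIAA0391. In hypoxia against control 9 rose and 10 fell, or 25.7% and 28.6% of the list beside 29.4% and 27.8% of all genes. The 4 with the smallest p, named next, all rose, while LRPPRC, PNPT1 and TFAM, chosen after their values were seen, were among the 10 that fell, at -0.60, -0.65 and -0.66. SLIRP, which with LRPPRC stabilises mitochondrial mRNAs, went from 31.0 to 85.1 mean CPM (log2 1.45 ± 0.31, adjusted p = 0.00601). FASTK, which binds ND6 mRNA, rose by 1.24 ± 0.25, HSD17B10, a subunit of mitochondrial RNase P, by 1.18 ± 0.26, and TBRG4 (FASTKD4), which stabilises several mitochondrial mRNAs, by 1.04 ± 0.21. In TEPA+hypoxia against hypoxia 14 rose and 10 fell (40.0% and 28.6% of the list, beside 30.9% and 30.6% of all genes), these 4 among the 10, at -1.77, -1.27, -1.35 and -1.12. Of the 35, edgeR called 0 in hypoxia against control without hypoxia 2 and 3, with 9 at an unadjusted p under 0.05. In that fit, in TEPA+hypoxia against TEPA, the CCA-adding enzyme gene TRNT1 and POLG2, a subunit of the mitochondrial DNA polymerase, were called higher.

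Of 20 genes for mitochondrial aminoacyl-tRNA synthetases, which charge the tRNAs described above, 19 were tested. In TEPA+hypoxia against TEPA edgeR called 0 of them, with 2 at an unadjusted p under 0.05. Of all genes 0.0623% and 0.0346% were called higher and lower there, so 0 of 19 does not show that they were unchanged. In hypoxia against control 5 rose and 5 fell, each 26.3% of the 19, beside 29.4% and 27.8% of all genes. Among those that fell was IARS2 (-2.09), chosen after its value was seen. Of the 4 genes named by smallest p all rose: the proline, serine, valine and lysine enzymes PARS2, SARS2, VARS2 and KARS, the last of which also serves the cytosol, rose by 0.78 ± 0.14, 0.76 ± 0.19, 0.54 ± 0.12 and 0.36 ± 0.11. Only IARS2, an isoleucine enzyme, was called in that comparison without hypoxia 2 and 3, and it was lower.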

How the data were processed

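RNA was measured by poly(A)-selected, directional sequencing in 12 libraries, 3 in each of 4 groups. The deposited values are whole-number counts per gene symbol that the authors made by alignment with HISAT2 2.1.0 to GRCh38, per the submitters' processing notes, which also name DESeq. Which counter and annotation were used, and whether counting took account of strand, is not given in the sources used here. Counts were analysed with edgeR 4.0.16 in R 4.3.3 (TMM scaling, filterByExpr, quasi-likelihood F test on group means of all 12 libraries, 2-sided, Benjamini-Hochberg over the genes tested), which gave every adjusted p printed unless another tool is named. The fit was tested on simulated data with 200 changed genes. The simulated spread between libraries was smaller than in the fit of all 12 libraries, and no simulated library stood apart. That check therefore does not cover the part of hypoxia 2 and 3. SE is the fold change divided by the square root of F. Alternatives were DESeq2 1.42.0, limma-voom (limma 3.58.1), other scalings and filters, a replicate block, only the groups compared, leaving out each library, and leaving out hypoxia 2 and 3.

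Members and lists were chosen with earlier results of these data known. Full values are given for each member called in any of the 6 comparisons and for ND1, ND6, RNR1 and RNR2. Up to 4 genes of each of the 2 pathway lists with the smallest p were named, and nuclear copies with at least 10 counts in every library. Depth ran from 13406858 to 24778944 counts per library, and intervals of shares are 95% Wilson intervals. Replicate numbers were not used as pairs in the main fit, and whether they pair the libraries was not settled.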

Additional observations from a re-analysis of the deposited data

Results flagged for a closer look

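In the interaction 21.5% and 17.3% of all genes were called lower and higher, beside 8 and 4 of the 30 tested members. The number of members called was near the share of all genes, so it does not set the members apart from other genes. The response to low oxygen with TEPA minus the response without it passed the edgeR test of the difference for 12 members. On the log2 scale it was -2.88 ± 0.47 for TRNT (SE, adjusted p = 0.0236), -2.27 ± 0.64 for TRNW (adjusted p = 0.0245), -2.24 ± 0.59 for TRNC (adjusted p = 0.0236) and -2.24 ± 0.67 for TRNE (adjusted p = 0.0276). It was -2.14 ± 0.50 for TRND (adjusted p = 0.0236), -1.76 ± 0.50 for TRNQ (adjusted p = 0.0255), -1.24 ± 0.23 for ND3 (adjusted p = 0.0236) and -0.62 ± 0.20 for COX2 (adjusted p = 0.0314). The difference was positive for ND4 at 0.49 ± 0.17 (adjusted p = 0.0405), ND5 at 1.03 ± 0.28 (adjusted p = 0.0237), ATP8 at 1.16 ± 0.39 (adjusted p = 0.0394) and ND4L at 1.76 ± 0.51 (adjusted p = 0.0263). Without hypoxia 2 and 3 no member passed, the smallest adjusted p being 0.0643 for ND3 and the next among these 12 0.0654 for TRNT. That fit has 1 hypoxia library. The value of TRNW rests on counts under the floor in every TEPA+hypoxia library.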

How the results depend on the processing

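No called value changed its direction under any alternative run. With only the groups compared in the fit, edgeR called 0 of all genes in hypoxia against control. It called 150 of 13968 lower in TEPA+hypoxia against TEPA. Against hypoxia it called 2204 higher and 2995 lower of 13952, and against control 85 lower of 13989. Members called there were 0 higher and 0 lower in hypoxia against control and 10 lower in TEPA+hypoxia against TEPA. In TEPA+hypoxia against hypoxia they were 3 higher and 9 lower, and against control 10 lower. Without hypoxia 2 and 3, which earlier results had shown to stand apart, these were 0 and 2, 11, 2 and 6, and 12, with 0 and 0 for the interaction. In TEPA+hypoxia against TEPA and against control, DESeq2 called 7 and 10 lower, limma-voom 1 and 3, and the replicate block 1 and 1. Of all 14447 genes DESeq2 called 50 and 156 lower, limma-voom 3 and 15, and the block 3 and 8. The block left 2 members called higher in the interaction, where it called 2020 of all genes higher. Same-numbered libraries did not deviate from their group means together more than others did (median r -0.04 over 18 pairs, against 0.02 over 36 other pairs). The r of the 18 ran from -0.36 to 0.32, with 6 of them over 0.1. With 3 libraries in each group mean, this check cannot exclude pairing.

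Leaving out each library in turn gave 2 to 10 higher and 7 to 12 lower in hypoxia against control, 0 to 8 lower in TEPA+hypoxia against TEPA, 3 to 6 higher and 9 to 17 lower against hypoxia, 0 to 11 lower against control, and 0 to 6 higher and 0 to 12 lower in the interaction. The share of counts in hypoxia was 3.75% in hypoxia 1 alone. For rRNA alone the share was 0.312%, 0.271%, 0.313% and 0.280% in control, hypoxia, TEPA and TEPA+hypoxia, for tRNA alone 0.00612%, 0.00431%, 0.00599% and 0.00292%, and for mRNA alone 4.01% in TEPA. Counts of 1 to 20 at many tRNA genes limit what can be seen there, and 7 tRNAs could not be tested.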
